A study of Mus musculus with 8 samples.

Results

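The 10 genes Bdnf, Homer1, Gadd45b, Gadd45g, Pcsk1, Vgf, Inhba, Ptgs2, Plk2 and Nptx2 are late activity-response effector genes, and all 10 were among the 15519 genes of the deposited table. They were chosen by symbol from a list drawn up with the deposited values of these same libraries, Day 0 against Recurring, already known, so their values and differences are given as a description and no p value is attached to any of them. In neurons, firing first induces transcription factors such as Fos and Egr1, and these and CREB then drive a second set of genes that change the synapse and the signals a cell sends. The late set includes secreted factors (Bdnf, Vgf, Inhba, Nptx2), an enzyme that cuts secreted precursors (Pcsk1), proteins of the postsynapse (Homer1, Plk2), stress-type regulators (Gadd45b, Gadd45g) and the prostaglandin synthase Ptgs2. In the hippocampus this programme is known for its part in synaptic strengthening and scaling.

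The libraries held nuclear RNA of hippocampal pyramidal cells of wild-type (WT) mice. Imaging under a 2-photon microscope during navigation picked out place cells, which fire at particular locations, and these were marked with light (phototagged) so that their nuclei could be collected. Place cells labelled Day 0 gave 4 libraries and those labelled Recurring gave another 4, each titled with its own mouse number. The labels define these classes no further and give no age, sex or number of nuclei. Beyond these numbers no label calls the libraries independent, so each error is a spread over libraries that may be partly technical.

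Depth ranged from 8374986 to 14887866 reads, and 10718 to 13807 genes had at least 1 read in a library. Values below are normalized counts, which are reads divided by a size factor of the library, or log2 of the normalized count plus 1 where so named. Differences are Recurring minus Day 0 on the log2(normalized count + 1) scale. The added 1 shrinks changes of low genes, while a library at or near 0 pulls its group's mean far down. A difference can therefore go against the mean normalized counts. Of 10 CA1 pyramidal markers all were in the table, and their mean log2 level lay between 8.96 and 9.94 in Day 0 and between 9.07 and 9.84 in Recurring libraries. Bok, 1 of these 10, was at 0 reads in 4 libraries. Astrocyte markers, of which 6 of 7 were in the table, lay between 3.31 and 7.55 in Day 0 and between 7.52 and 9.39 in Recurring libraries on the same scale, and 5 of the 6 had a positive difference, with a median of 3.29 and 0 called. Microglia markers, of which 5 of 8 were in the table, lay between 1.55 and 4.64 and between 3.45 and 9.93, and 3 of the 4 tested had a positive difference, with a median of 4.57 and 0 called. The part of these markers in any difference below was not tested. In bulk libraries such as these, fewer cells of a type and less RNA per cell cannot be told apart.

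None of the 10 genes separated the groups. The limma fit over 11078 genes called 0 of them at an adjusted p under 0.05, which is 0% of all genes tested, and 0 of the 7 members that passed the filter on low values. Without adjustment, 401 genes or 3.62% of those tested had a p under 0.05, and limma's voom on the recovered reads also called 0. These counts of 0 do not show that genes were unchanged. In counts simulated at the median dispersion of the tested genes, the fit called 0 of 50 genes changed 4-fold and 14 of 50 changed 16-fold. The changed genes were drawn from those with a mean normalized count of at least 50, so fewer may be called among lower genes. The 7 tested members were Bdnf, Homer1, Gadd45b, Gadd45g, Pcsk1, Vgf and Plk2. Of these, 4 had a positive and 3 a negative difference, beside 50.1% positive and 49.9% negative over all genes tested. Their median difference was 0.01, and over all genes tested it was 0.00. Inhba, Ptgs2 and Nptx2 reached a normalized count of 10 in only 3 libraries each, and their differences come from a fit without the filter. In 0 of the 10 genes did the groups fail to overlap, where 2.41% of all genes tested had groups that did not overlap.

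**Figure D1:**
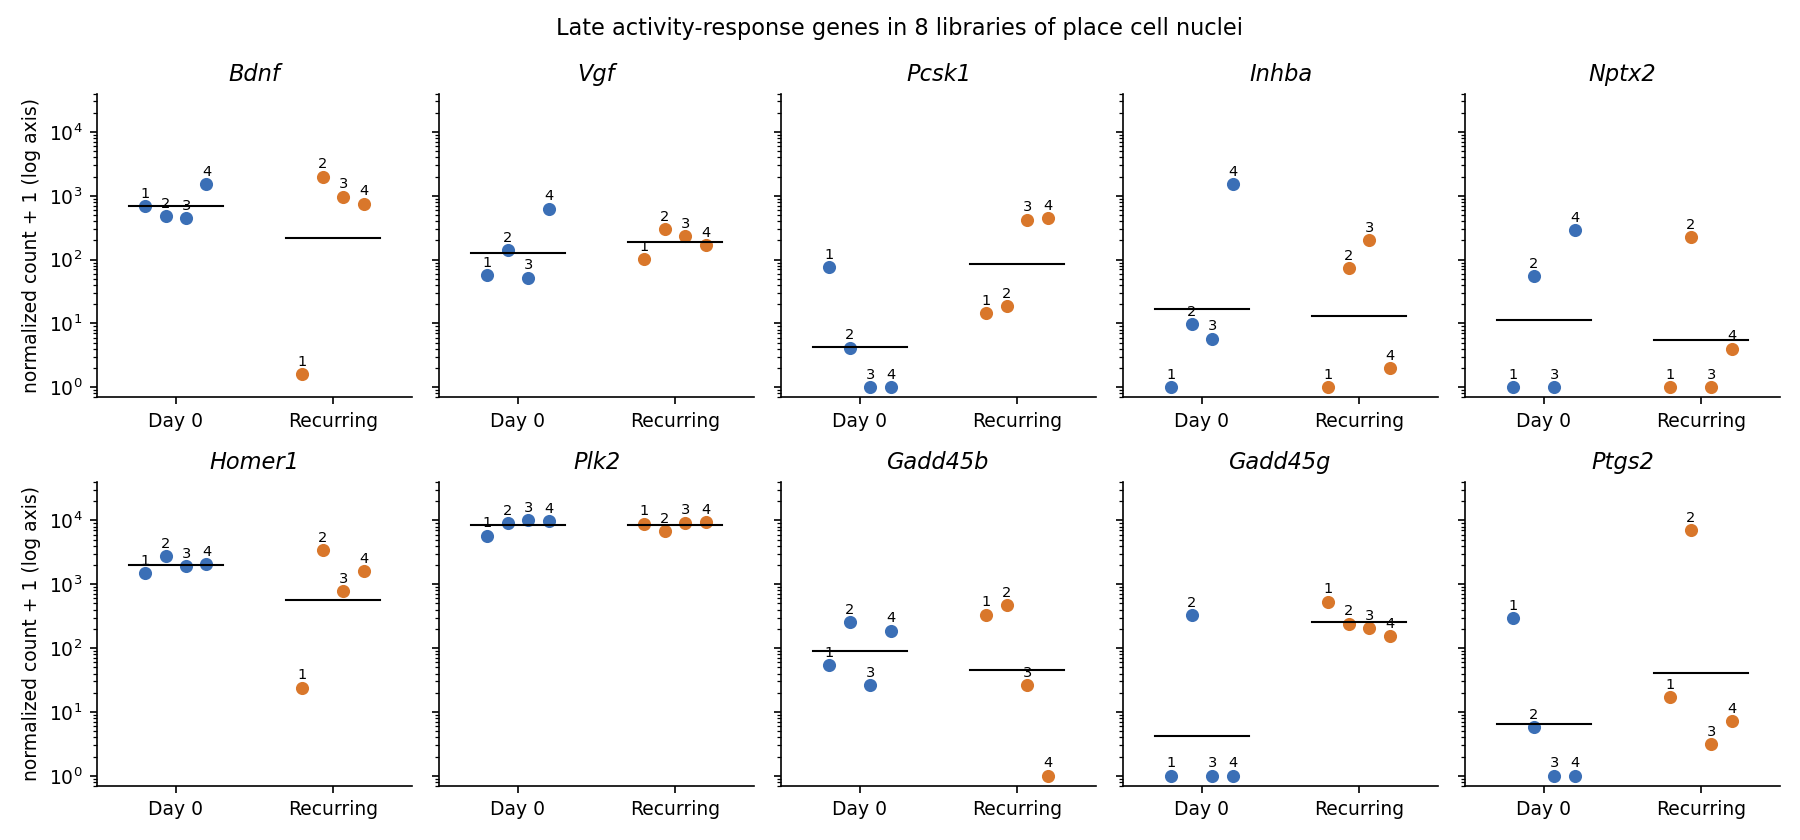
Normalized count plus 1 (log axis) of each gene in the 4 Day 0 (blue) and 4 Recurring (orange) libraries; the digit beside a point is the replicate number and the black line the mean of the log2 values. Plk2 lies between 5774 and 10121.5 in every library, Bdnf and Homer1 are lowest in Recurring replicate 1, and Ptgs2 reaches 6969 in Recurring replicate 2.

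The members differed widely in how many libraries held them. Reads were present in all 8 libraries for 4 members, which were Bdnf, Homer1, Vgf and Plk2, while Nptx2 had reads in 4 libraries and Gadd45g in 5. A count of 0 allows up to 3 reads in that library, for counting error only. All 10 members were detected in Day 0 replicate 2 and Recurring replicate 2, and as few as 6 in Day 0 replicate 3. Without Plk2, the other members together had a summed CPM (the share of a library's reads, scaled to a fixed total) of 302, 497, 244 and 638.5 in Day 0 replicates 1 to 4. In Recurring replicates 1 to 4 it was 111, 1388, 311 and 329. Ptgs2 gave 8632 of the reads behind the 1388, more than any other of these members, followed by Homer1 with 4243. Recurring replicate 2 was above the gene's own median for 9 of the 10 members and was the highest library for 4 of them (Bdnf, Homer1, Gadd45b and Ptgs2). Day 0 replicate 4 was above the median for 7 and the highest for 3 (Vgf, Inhba and Nptx2). The share of all genes that were highest or above their median in these libraries was not worked out, so these counts have no background.

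Per kilobase of merged exons (GENCODE vM21 lengths, whereas the reads were counted on GRCm39), Plk2 stood highest, at a mean normalized count of 1925 ± 338 per kilobase (SD, n = 8). Ptgs2 followed at 199 ± 535 (SD, n = 8), a mean carried by 1 library. Gadd45g was at 155 ± 161, Homer1 at 147 ± 89.1, Bdnf at 138 ± 103 and Gadd45b at 105 ± 108 per kilobase (SD, n = 8). Vgf was at 70.5 ± 64.0, Inhba at 35.4 ± 82.7, Nptx2 at 28.2 ± 46.4 and Pcsk1 at 21.7 ± 34.5 per kilobase (SD, n = 8). Plk2 apart, every gene's SD was larger than its gap to the next gene in this order. This order rests on the reconstructed reads (a constant per gene was divided out), and no separate read counts were used here to check it. Whether reads in introns were counted is not given in the sources used here.

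Bdnf encodes a secreted growth factor that acts through the TrkB receptor and strengthens synapses. Its normalized counts in Day 0 replicates 1 to 4 were 687, 475, 449 and 1535. In Recurring replicates 1 to 4 they were 0.619 (1 read), 1995, 971 and 749.8. Recurring replicate 1 was far below every other library and Recurring replicate 2 the highest, and the groups overlapped. The difference was -1.65 (SE 1.67, 95% interval -5.16 to 1.87), and without Recurring replicate 1 it was 0.72. The mean normalized count went the other way, at 787 in Day 0 and 929 in Recurring libraries. The transcripts of Bdnf start at several promoters, and the deposited counts sum over them.

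Homer1 encodes a scaffold that ties metabotropic glutamate receptors to the postsynapse, and its short form, Homer1a, is induced by activity and uncouples them. Counts per gene cannot tell the short form from the long ones. Its normalized counts were 1480.3, 2752, 1908 and 2085 in Day 0 replicates 1 to 4. They were 22.9, 3425, 782 and 1594 in Recurring replicates 1 to 4. Recurring replicate 1 was again the lowest library and Recurring replicate 2 the highest, a ratio of 149. The difference was -1.83 (SE 1.09, 95% interval -4.12 to 0.46), and without Recurring replicate 1 it was -0.31.

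Bdnf and Homer1 had a larger spread among the Recurring than among the Day 0 libraries. The SD of log2 values was 4.76 for Bdnf and 3.16 for Homer1 among the 4 Recurring libraries. Among the 4 Day 0 libraries it was 0.82 and 0.37. Without Recurring replicate 1, the Recurring SD was 0.73 for Bdnf and 1.07 for Homer1 (n = 3), below the Day 0 SD for Bdnf and still above it for Homer1. The spread within groups over all 8 libraries was larger for Homer1 than in 97.9% of the 1108 tested genes of its decile of mean level. For Bdnf it was larger than in 94.0% of 1107. Vgf and Plk2 had little spread for their level, larger than in 7.22% and 5.32% of their deciles. Gadd45b, Gadd45g and Pcsk1, at low levels where most genes vary, stood at 43.2%, 30.1% and 19.7%, and Pcsk1 at 35.9% with a pseudocount of 8.

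Some genes induced early by activity shared part of this pattern in Recurring replicate 1, and others did not. Egr1, an early transcription factor, was at 1.24 there. Its Day 0 values ran from 114 to 1572 and its other Recurring values from 713 to 917. Arc, of AMPA receptor removal, was at 0 in Recurring replicate 1 and also in Day 0 replicate 3, and between 191 and 1005 in the others. Fos went another way, at 518 in Recurring replicate 1, 1871 in Recurring replicate 2 and 630.0 in Day 0 replicate 2, and between 0 and 14.0 elsewhere. Nr4a1, an early nuclear receptor, stood at 318 there, within its range of 61.9 to 796 elsewhere. Npas4 was at 165, 78.9, 0 and 17.0 in Day 0 replicates 1 to 4 and at 0 in the Recurring libraries. In Recurring replicate 1, low values thus coincided for Egr1, Arc, Bdnf and Homer1, and not for Fos, Nr4a1, Gadd45b, Gadd45g, Vgf or Plk2. Inhba and Nptx2 were at 0 there, as they also were in Day 0 replicate 1. Recurring replicate 1 had the most reads, the second fewest genes detected (10904) and a CA1 marker level of 9.75. Its astrocyte marker level was 9.25, against 3.31 to 7.55 in the Day 0 libraries, its microglia level 3.45 and its interneuron level 2.63. The part of the library itself or of these markers in the low values was not tested. Junb, an early AP-1 subunit singled out after its values were seen, was at 21.7 there and from 163 to 1016 elsewhere. Other early genes, also taken with their values in view, went both ways. Dusp6 was at 0 there and from 11.9 to 1463 elsewhere. Jun was at 0.619 there, but at 0 in Day 0 replicate 3 and in Recurring replicates 3 and 4. Egr3 was at 375, Egr4 at 162 and Nr4a2 at 360 there, each within its range elsewhere.

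The genes most like Homer1 over the 8 libraries were picked as the highest of 9609 Pearson correlations of log2 values, so their r is high by choice, and 206 genes exceeded 0.9. The points share their libraries and size factors, and no test was made. The first were Tor1b (r = 0.990, Spearman's rho = 0.929) and Ppm1k (r = 0.986, rho = 0.857). Both were low in Recurring replicate 1, at 0 and 4.34, and highest in Recurring replicate 2, at 760.5 and 2649.

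The starts of Homer1 and Bdnf are shown because both genes were low in the same library. Those of Pcsk1, uneven across libraries, and Plk2, even across them, are shown because they hold a full cAMP response element. Windows run from 250 bases before to 50 after each start, from RefSeq on GRCm38.p6, an earlier build than the GRCm39 of the counts. Of the 10 genes 8 matched, with 15 windows, 7 of them for Bdnf, of which the 1 with the short element is printed. Homer1 had 2 windows, and again only the 1 with the short element is printed. Vgf and Nptx2 are named only. Capitals mark the short element TGACG or its other strand CGTCA. The full element TGACGTCA holds both, overlapping. Bdnf lies at chr2:109692186-109692485, Homer1 at chr13:93303507-93303806, Pcsk1 at chr13:75089607-75089906 and Plk2 at chr13:110394794-110395093, all on the plus strand.
Bdnf: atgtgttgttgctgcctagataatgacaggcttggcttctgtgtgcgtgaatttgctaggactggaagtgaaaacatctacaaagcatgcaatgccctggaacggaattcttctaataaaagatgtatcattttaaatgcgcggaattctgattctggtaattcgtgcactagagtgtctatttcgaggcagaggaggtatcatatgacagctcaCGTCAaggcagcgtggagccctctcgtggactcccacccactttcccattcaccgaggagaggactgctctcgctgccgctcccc
Homer1: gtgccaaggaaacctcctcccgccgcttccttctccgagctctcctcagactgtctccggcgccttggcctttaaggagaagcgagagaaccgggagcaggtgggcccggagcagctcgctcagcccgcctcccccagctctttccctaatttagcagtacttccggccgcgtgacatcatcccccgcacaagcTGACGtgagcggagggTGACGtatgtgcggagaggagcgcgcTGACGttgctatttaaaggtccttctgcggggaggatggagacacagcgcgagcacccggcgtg
Pcsk1: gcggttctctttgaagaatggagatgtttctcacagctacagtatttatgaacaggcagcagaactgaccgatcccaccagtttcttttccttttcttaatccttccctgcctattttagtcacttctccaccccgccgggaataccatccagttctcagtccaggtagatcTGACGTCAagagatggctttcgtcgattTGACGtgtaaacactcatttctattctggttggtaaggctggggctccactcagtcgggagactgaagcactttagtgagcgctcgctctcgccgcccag
Plk2: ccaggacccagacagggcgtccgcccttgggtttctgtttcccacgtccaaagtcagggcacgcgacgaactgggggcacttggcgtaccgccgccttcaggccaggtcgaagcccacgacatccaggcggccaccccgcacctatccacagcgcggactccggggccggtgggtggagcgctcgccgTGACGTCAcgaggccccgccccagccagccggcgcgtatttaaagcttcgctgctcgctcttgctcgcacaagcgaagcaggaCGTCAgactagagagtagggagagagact
The short element began at position -35 in Bdnf and at -56, -40 and -14 in Homer1, counted from the start with no position 0. The full element began at -78 in Pcsk1, which had a further short element at -50, and at -62 in Plk2, which had a further one at 22. Of all 32851 windows, 20.8% held a short element and 1.79% a full one on either strand. The AP-1 letters TGANTCA were in 7.81% of all windows and, among these genes, in another Bdnf window only. Ptgs2 had a short element at 14, while the windows of Gadd45b, Gadd45g and Inhba held neither element, which says only that these letters are not in those windows. These matches are letters in a sequence and were not measured as sites.

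Vgf encodes a secreted neuropeptide precursor that responds to neurotrophins. Its normalized counts were 55.8, 138, 51.4 and 630.4 in Day 0 replicates 1 to 4, and 99.7, 301, 231 and 168 in Recurring replicates 1 to 4. The highest value was in a Day 0 library, the 2 lowest were too, and the Recurring values lay between them. The difference was 0.55 (SE 1.45, 95% interval -2.50 to 3.60), and it ranged from 0.12 to 1.32 as each library was left out. The mean normalized count went the other way, at 219 in Day 0 and 200 in Recurring libraries.

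Pcsk1 encodes prohormone convertase 1, which cuts neuropeptide and hormone precursors in secretory granules. Its normalized counts were 75.8, 3.19, 0 and 0 in Day 0 replicates 1 to 4, and 13.6, 17.8, 423 and 441 in Recurring replicates 1 to 4. Recurring replicates 3 and 4 stood above every Day 0 library, and replicates 1 and 2 lay below Day 0 replicate 1. Pcsk1 passed the filter through all Recurring libraries and Day 0 replicate 1, so its being tested leaned on the group where it was high. The difference was 4.32 (SE 2.33, 95% interval -0.59 to 9.23), and it was 3.53 at the lowest as each library was left out. Cpe, the carboxypeptidase that trims the cut peptides, was steadier, at 5694 to 9164 in Day 0 and 5262 to 15304 in Recurring libraries, a difference of 0.22 (SE 0.33).

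Inhba encodes the subunit of activin A, a secreted ligand of the TGF-beta family. Its normalized counts were 0, 8.77, 4.78 and 1522 in Day 0 replicates 1 to 4, and 0, 72.7, 202 and 1.01 in Recurring replicates 1 to 4. Day 0 replicate 4 was 7.52-fold above the next library. The difference was -0.38 (SE 2.84, 95% interval -6.33 to 5.57), and without Day 0 replicate 4 it was 1.78. The activin receptor gene Acvr2a had reads in every library, from 229 to 1282, with a difference of 0.44 (SE 0.82).

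Nptx2 encodes a secreted pentraxin that gathers AMPA receptors at synapses on interneurons. It was at 0, 53.4, 0 and 292 in Day 0 replicates 1 to 4, and at 0, 224, 0 and 3.04 in Recurring replicates 1 to 4. Each group thus held 2 libraries at 0 and 2 with reads. The difference was -1.03 (SE 2.50, 95% interval -6.27 to 4.20), and without Day 0 replicate 4 it was 0.53. Gria1, an AMPA receptor subunit gene, was at 8218 to 16117 in Day 0 and 11825 to 14761 in Recurring libraries, a difference of 0.20 (SE 0.26).

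Plk2 encodes a kinase that weakens synapses after prolonged activity. It was the most even member, at 5774, 9027, 10121.5 and 9798 in Day 0 replicates 1 to 4, and 8939.6, 6858, 9188 and 9442 in Recurring replicates 1 to 4. The highest library was 1.75-fold above the lowest, both of them Day 0 libraries. The difference was 0.01 (SE 0.28, 95% interval -0.58 to 0.60), and its sign turned under other scalings, at -0.01 with TMM normalization and -0.03 with CPM scaling. Rasgrf1, a Ras activator that Plk2 targets for loss, was at 5737 to 11846 in Day 0 and 5803 to 17803 in Recurring libraries, a difference of 0.08 (SE 0.36).

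Gadd45b and Gadd45g belong to a family of small proteins that take part in DNA demethylation and in stress kinase signalling. Gadd45g was at 0, 329, 0 and 0 in Day 0 replicates 1 to 4, and at 534, 239.8, 204 and 152 in Recurring replicates 1 to 4. It had reads in every Recurring library and in 1 of 4 Day 0 libraries, and that library lay among the Recurring values. The difference was 5.89 (SE 2.41), with an unadjusted 95% interval of 0.80 to 10.98, and it was 7.98 without Day 0 replicate 2. With library weights it was 3.49 (SE 2.39). The mean normalized count was 82.1 in Day 0 and 283 in Recurring libraries, a smaller change than the difference, which the Day 0 libraries at 0 enlarge. Day 0 replicate 2, the Day 0 library with Gadd45g reads, had the most genes detected of all 8 libraries (13807). Of the Day 0 libraries it also had the highest CA1 (9.94), dentate granule (7.98), oligodendrocyte (8.63), astrocyte (7.55) and microglia (4.64) marker levels. Interneuron (4.21) and endothelial (2.63) markers were higher in another Day 0 library, at 7.37 in replicate 1 and 2.98 in replicate 4. The part of these in the result was not tested. The Gadd45g interval left out 0 with all 8 libraries, as did that of no other tested member. Gadd45g passed the filter through all Recurring libraries and Day 0 replicate 2, so its being tested leaned on the group where it was high. Under 4 of 18 alternatives the interval included 0, which were library weights and leaving out Day 0 replicate 1, 3 or 4. Gadd45g was not called over all genes.

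Gadd45b was at 53.5, 254, 25.1 and 186 in Day 0 replicates 1 to 4, and at 333, 464, 25.4 and 0 in Recurring replicates 1 to 4. Its Recurring values lay both above and below all Day 0 values. The difference was -1.01 (SE 2.28, 95% interval -5.83 to 3.81), and without Recurring replicate 4 it was 0.82. The mean normalized count went the other way, at 130 in Day 0 and 206 in Recurring libraries. Map3k4, a kinase that GADD45 proteins bind, was at 204 to 1660 in Day 0 and 920.3 to 2352 in Recurring libraries, a difference of 0.73 (SE 0.69).

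**Figure D2:**
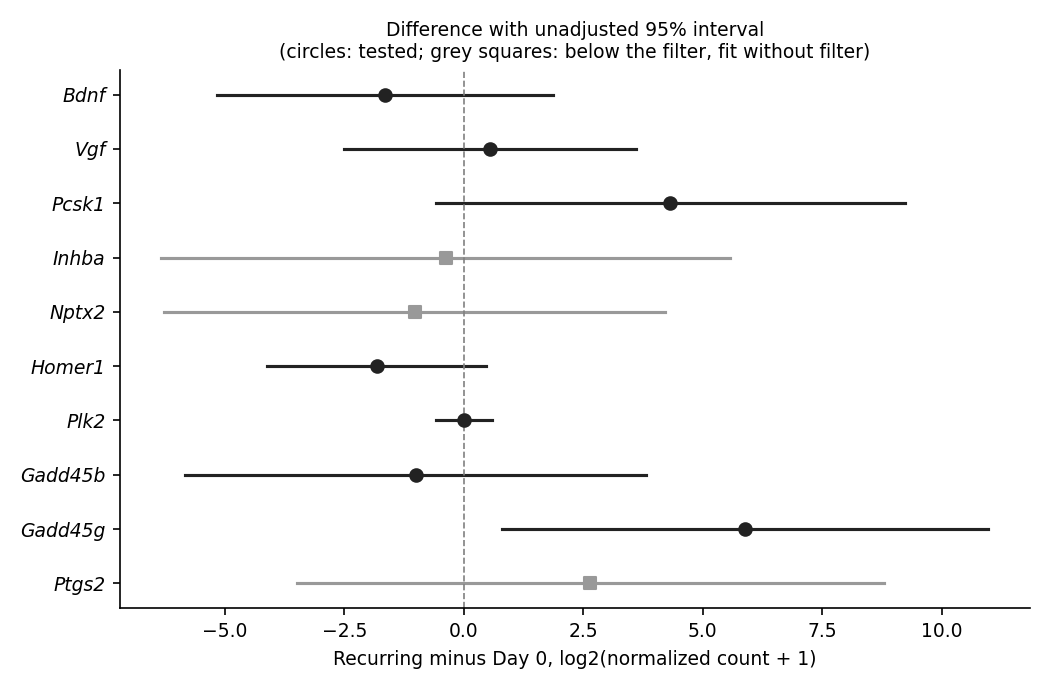
Difference between groups (Recurring minus Day 0, log2 of normalized count plus 1) with its unadjusted 95% interval; circles are tested genes and grey squares genes below the filter. Gadd45g at 5.89 and Pcsk1 at 4.32 lie farthest from 0, Plk2 has the narrowest interval, and 6 of the 7 tested intervals include 0.

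Ptgs2 encodes cyclooxygenase 2, the inducible enzyme that makes prostaglandin H2. It was at 295, 4.78, 0 and 0 in Day 0 replicates 1 to 4, and at 16.1, 6969, 2.12 and 6.09 in Recurring replicates 1 to 4. Recurring replicate 2 stood 23.6-fold above the next library, Day 0 replicate 1, and the other 6 libraries lay between 0 and 16.1. The difference was 2.65 (SE 2.93, 95% interval -3.50 to 8.79), and without Recurring replicate 2 it was 0.17.

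Of 5 prostaglandin partners in the table, 3 were highest in the same library and the other 2 were at 0 there. The share of all genes highest in that library was not worked out. Pla2g4a, the phospholipase that frees arachidonic acid, reached 454 there, and its other values ran from 0 to 15.2. Ptges, a prostaglandin E synthase, was at 482 there and between 0 and 4.06 elsewhere. Ptges2, another prostaglandin E synthase, was at 0 there and at up to 405 elsewhere. Ptger4, a prostaglandin E receptor, was at 0 there and at up to 232 elsewhere. Apart from Ptges3, these were singled out with their values in view. Ptges3, the partner taken by the naming rule, was at 1747 there and between 176 and 1582 elsewhere, with a difference of -0.35 (SE 0.74).

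Recurring replicate 2 was also the library with the highest interneuron marker level, at 8.12 on the log2 scale. Of 9 such markers 8 were in the table, and the level lay between 1.69 and 7.37 in Day 0 libraries and between 2.63 and 6.37 in the other Recurring libraries. Gad1 and Gad2, of GABA synthesis, were at 4634 and 1438 there and at most at 970 and 339 elsewhere, while Vip was at 0. These 3 markers were singled out after their values were seen. Of the others in the table, Pvalb and Npy were highest there, while Slc32a1, Sst and Adarb2 were higher in another library. Gad2 was also the gene most like Ptgs2 among 9610 compared over the 8 libraries (r = 0.910, Spearman's rho = 0.904), followed by Mrpl45 (r = 0.901, rho = 0.766) and Alkbh5 (r = 0.893, rho = 0.898). Day 0 replicate 1, the next highest in Ptgs2, had the second highest interneuron level, 7.37. The part of these cells in the Ptgs2 reads was not tested. Astrocyte and microglia markers were at 9.39 and 6.90 in Recurring replicate 2, the highest and the second highest of the 8.

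**Figure D3:**
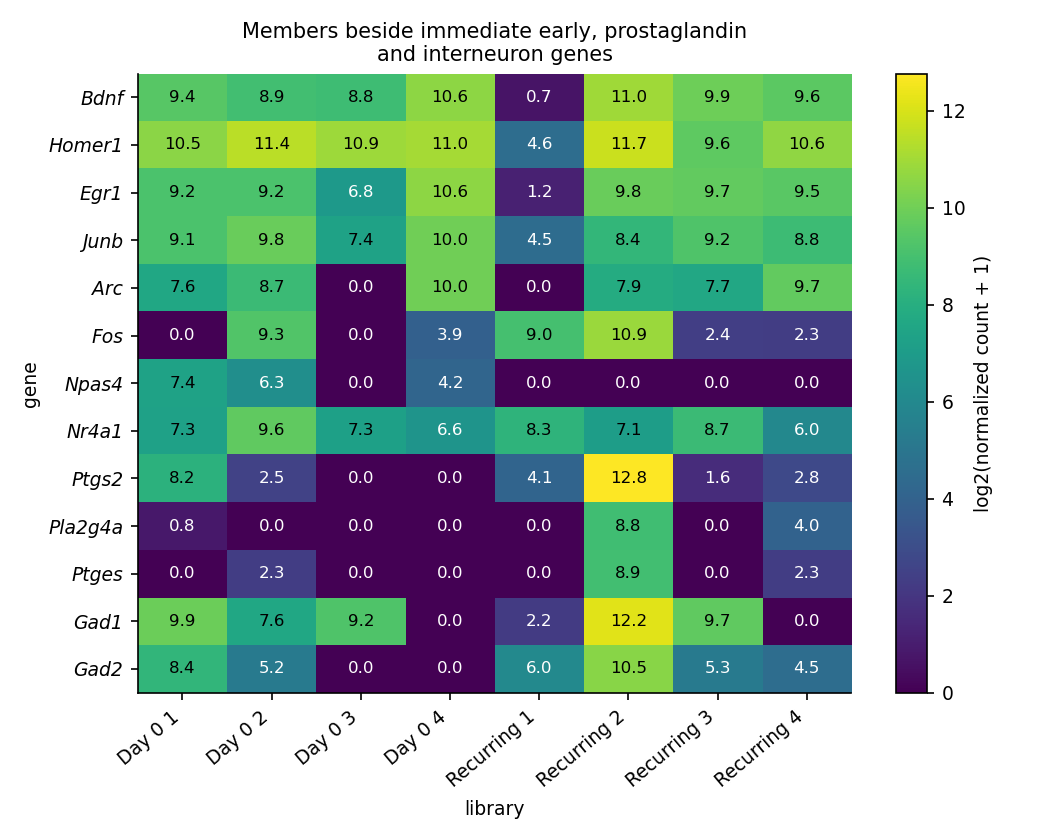
Log2 of normalized count plus 1 (colour and printed value) of Bdnf, Homer1 and Ptgs2 beside early, prostaglandin and interneuron genes, one column per library. Recurring replicate 1 is low in Bdnf, Homer1, Egr1, Junb and Arc, but not in Fos or Nr4a1. Recurring replicate 2 is high in Ptgs2, Pla2g4a, Ptges, Gad1 and Gad2. Genes of the same kinds that are at 0 there (Ptges2, Ptger4 and Vip) or higher in another library (Slc32a1, Sst and Adarb2) are not drawn.

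The genes most like Plk2, picked in the same way, were Mlx (r = 0.990, rho = 0.929), Vps33b (r = 0.973, rho = 0.738) and Tmem255a (r = 0.972, rho = 0.881). All 3 were lowest in the libraries where Plk2 was, Day 0 replicate 1 and Recurring replicate 2. Mlx was at 16.4 and 49.2 in those libraries and between 329 and 638 in the others.

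Other late activity-response genes were split between directions. Of 21 listed, 18 were in the table and 15 were tested, and 8 had positive and 7 negative differences, with a median of 0.08 and 0 called. Of the 4 most abundant, 3 had a difference under 0.6 in size. Rasgrp1, a Ras activator, differed by -0.15 (SE 0.26), Ptprn, a protein of secretory granules, by -0.57 (SE 0.36) and Sorcs3, a sorting receptor of synapses, by 0.08 (SE 0.49). Scg2, a granin cut into secreted peptides, was at 0 in Day 0 replicate 4 and at 8365 in Recurring replicate 2, and differed by 3.08 (SE 1.77).

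Of 24 rapid immediate early genes, 21 were in the table and 15 were tested, with 6 positive and 9 negative differences, a median of -0.18 and 0 called. Fos differed by 2.85 (SE 2.77), Egr1 by -1.41 (SE 1.65), Arc by -0.27 (SE 2.52) and Nr4a1 by -0.18 (SE 1.31). Npas4, below the filter, differed by -4.47 (SE 1.77, unadjusted interval -8.17 to -0.76) in a fit without it. Fosb (-5.69, interval -10.2 to -1.17) and Atf3 (-2.29, interval -4.46 to -0.12), also below it, were taken with their values in view. Npas4, Fosb and Atf3 were each at 0 in every Recurring library and in a Day 0 library, so the groups overlapped. The others below it, Dusp1 (-2.07), Egr2 (-0.02) and Fosl2 (1.76), had intervals that included 0. Among 46 receptors, substrates and other partners of the members, 36 were in the table and 31 tested, with 11 positive and 20 negative differences, a median of -0.23 and 0 called. Over all genes tested the median was 0.00. Of partners named by the rule and not given above, Grm5, the metabotropic receptor that Homer1 binds, differed by -0.17 (SE 0.25), Sort1, the sorting receptor of proBDNF, by -0.23 (SE 0.48) and C1qbp, reported as a receptor of a VGF peptide, by 0.50 (SE 2.21).

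**Figure D4:**
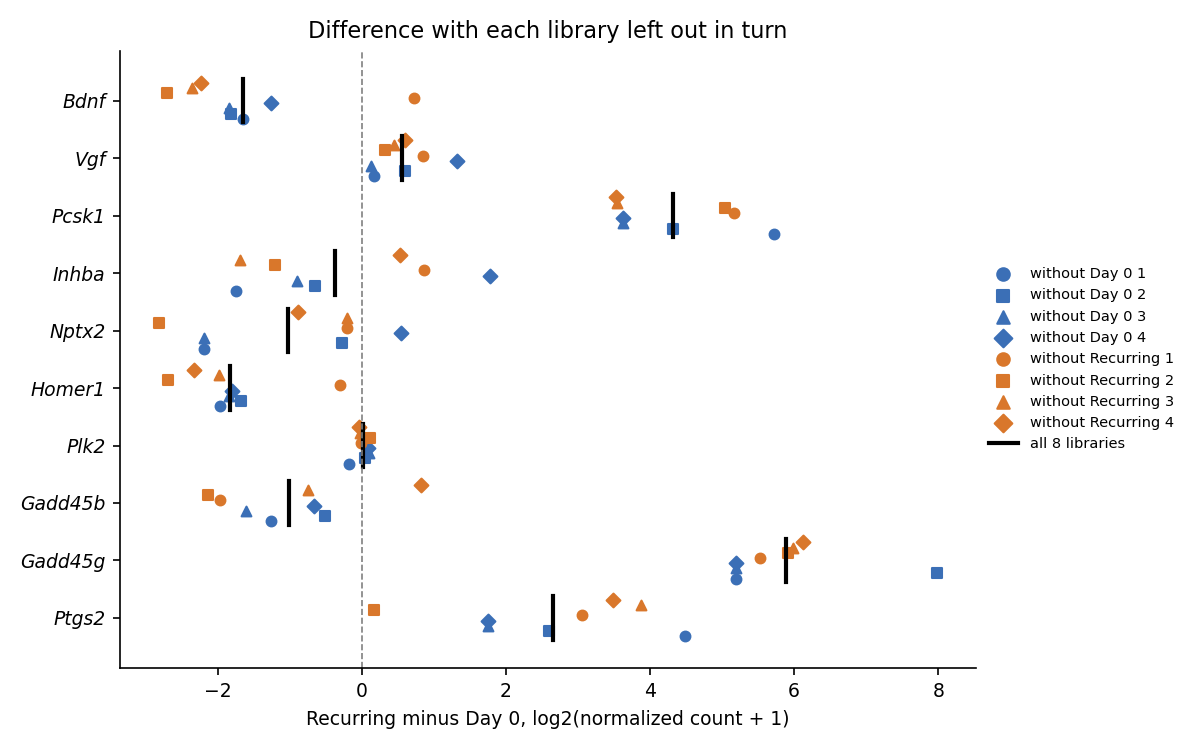
Difference between groups (Recurring minus Day 0, log2 of normalized count plus 1) with all 8 libraries (black bar) and with each library left out in turn (blue, Day 0; orange, Recurring). Bdnf moves from -1.65 to 0.72 and Homer1 from -1.83 to -0.31 without Recurring replicate 1, Ptgs2 from 2.65 to 0.17 without Recurring replicate 2, while Gadd45g stays between 5.19 and 7.98.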

How the data were processed

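The submitters' processing notes name STAR, HTSeq and the build GRCm39, without versions. Library preparation used SMART-Seq mRNA LP, per the labels' protocols. The deposited values are a scaled signal without a log transform, and how the authors scaled them is not given in the sources used here. Every deposited value proved to be a whole read number multiplied by a constant of its gene. These constants equal trimmed-mean-of-M-values factors worked out as if genes were libraries, against the gene Ptdss1. They carried no depth correction. The reads are therefore a reconstruction: their scale between genes rests on these constants. Dividing the constants out gave whole reads, within 0.1 read, for 95910 of 95910 values above 0. The recovery step and the fit were tested on simulated data. At a dispersion of 0.758, the median of the tested genes, the fit called few of the genes changed by known folds. These were drawn from genes with a mean normalized count of at least 50. It called 0 of 50 changed 2-fold, 0 of 50 changed 4-fold, 2 of 50 changed 8-fold and 14 of 50 changed 16-fold. Size factors (median of ratios) turned the reads into normalized counts. The model was limma's (version 3.58.1, R 4.3.3) on log2(normalized count + 1) with its trend option, over 11078 genes with a normalized count of at least 10 in 4 or more libraries. Benjamini-Hochberg adjustment ran over all of them at a threshold of 0.05.

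The members and gene lists were chosen with earlier results of these data known. Named genes were all 10 members, each member's most abundant tested partner, 4 abundant late genes, 5 early genes and the 3 genes most like each of the 3 most abundant members, with predicted genes and clones left out. One gene that the rule names is not reported here. Replicates were numbered in order of deposit and pair no libraries. Files give gene symbols only. Gene counts without known strand or multi-mapping settings cannot resolve overlapping genes. Alternatives changed the pseudocount, filter, scaling, variance trend, weights and model, or left out 1 library.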

Additional observations from a re-analysis of the deposited data

Results flagged for a closer look

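In 24 groups of 4 libraries, 1 library was checked for lying apart from the other 3 (its gap to the nearest, as a share of the group's range, above Dixon's 95% limit), and chance gives about 1 in 20. Bdnf in Recurring replicate 1, at 0.70 on the log2(normalized count + 1) scale, lay below the other Recurring libraries, with a gap of 0.863 of the range. Gadd45g in Day 0 replicate 2, at 8.36, lay above the other Day 0 libraries, which were at 0, a gap of 1 of the range. With the other 3 libraries tied at 0, any value above 0 gives this gap, so the rate of 1 in 20 does not hold for it.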

How the results depend on the processing

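The count of genes called was 0 under every alternative run except limma without a variance trend, which called 2, neither of them a member. At an unadjusted p under 0.05 the count was 650 of 15519 with no filter, against 401. The differences of Homer1, Gadd45g, Pcsk1, Vgf and Ptgs2 kept their sign under every alternative that gave a value. Signs that turned were those of Bdnf without Recurring replicate 1 (0.72), Gadd45b without Recurring replicate 4 (0.82) and Nptx2 without Day 0 replicate 4 (0.53). Inhba turned without Day 0 replicate 4 (1.78), Recurring replicate 1 (0.86) and Recurring replicate 4 (0.53). Plk2, near 0, turned with TMM normalization (-0.013), with CPM scaling (-0.035) and with any 1 of 4 libraries left out, within a range of -0.17 to 0.12. Over the libraries left out in turn, Bdnf ranged from -2.71 to 0.72, Gadd45b from -2.14 to 0.82, Inhba from -1.74 to 1.78 and Nptx2 from -2.82 to 0.53. Those for Inhba, Ptgs2 and Nptx2 used no filter, chosen after seeing the data. A pseudocount of 8 brought Gadd45g to 3.67 and Pcsk1 to 2.70, and library weights brought Bdnf to -0.38. The unadjusted interval left out 0 for Homer1 under 2 of 18 alternatives and for Pcsk1 under 4 of 17. The deposited values as they stand moved the median of all genes by 0.10. Where these shifts come from was not tested. The planned edgeR test was not run, because the reads are a reconstruction from values scaled per gene. The spread percentile of Pcsk1 was 35.9 with a pseudocount of 8, against 19.7. A minimum of 50 gave no value for Pcsk1, and several settings that keep the filter gave none for Inhba, Ptgs2 or Nptx2. No paired analysis was possible, because each library is titled with its own mouse number and the labels pair no mice between groups.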

Other observations

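Rem2, an activity-regulated GTPase of the other late genes, was chosen after its values were seen for a layout like that of Gadd45g. It was at 0 in Day 0 replicates 1 to 3 and at 1288 in Day 0 replicate 4, and at 213, 425, 231 and 299 in Recurring replicates 1 to 4. Its difference was 5.56 (SE 2.55, unadjusted 95% interval 0.18 to 10.93), and it was not called over all genes. Rem2 passed the filter through all Recurring libraries and Day 0 replicate 4. The Day 0 library with reads was another one than for Gadd45g, which was present in Day 0 replicate 2.

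Nptx1, a relative of Nptx2 chosen after its values were seen, had reads in all 8 libraries. It was at 2673, 2516, 2546 and 1258 in Day 0 replicates 1 to 4, and at 486, 2266, 82.6 and 1337 in Recurring replicates 1 to 4. Its difference was -1.86 (SE 0.82, unadjusted 95% interval -3.60 to -0.12), it was not called over all genes, and the groups overlapped.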
